A study of Acipenser transmontanus and Acipenser medirostris with 18 samples.

Results

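The genes described here are those of the cell division cycle and of DNA replication in sturgeon epithelium. They were chosen by protein name: every transcript whose annotated name held ribonucleoside-diphosphate reductase, proliferating cell nuclear antigen, DNA replication licensing factor, G2/mitotic-specific cyclin, G1/S-specific cyclin, cyclin-dependent kinase, DNA topoisomerase 2, thymidylate synthase, thymidine kinase, histone H2A, high mobility group or stathmin. Counts of full-length PacBio reads were summed by PacBio locus. The rule gave 76 loci of 13249 and 290 transcripts of 70537, with 7865 of 2734415 counts. Of these rows, 0 carried the name proliferating cell nuclear antigen. The name rule also took in loci that are not part of the division machinery. Among these are a kinase of transcription (CDK9), a histone H2A deubiquitinase (MYSM1) and TOX family proteins, which only hold a high mobility group box.

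The study grew epithelial cells from pieces of sturgeon integument and sequenced their polyadenylated RNA beside RNA of intact tissue. The green sturgeon material was 1 library of fibroblasts and adipocytes, from a female, and 6 epithelial cultures, 2 of them from the upper palate (numbered 1, male, and 4, female), 2 from ampullae of Lorenzini (5, female, and 6, no sex given), and 1 each from the esophagus (3) and the mouth rim (2), both male. The white sturgeon material was 5 epithelial cultures, from mouth rim (numbered 1, 4 and 5, with 4 from a dodecaploid fish) and skin (2 and 3), and 6 intact tissues with 1 library each: dorsal skin, barbel, mouth rim, upper palate, ampullae of Lorenzini and esophagus. All fish but the dodecaploid one were labelled octoploid. Cells had been grown in medium with serum, epidermal growth factor, hydrocortisone, insulin, transferrin and the rho kinase inhibitor Y27632. They were initially on a 3T3 feeder layer, so every culture had received growth stimulation that the tissues had not. Confluence is given as the point of passage or staining, and the density at RNA collection is not stated. The medium also held penicillin and streptomycin, and at first ciprofloxacin and amphotericin B against microbes. Apart from trypsin for the green tissue pieces, no other treatment is given for these libraries. The labels do not say which libraries share a fish, so p-values measure the spread between these libraries only.

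Library totals ran from 29797 counts in the esophagus tissue to 302286 in the ampullae culture 5 of green sturgeon. A single count was therefore worth between 3.36 and 0.331 counts per 100000, the unit of every level below, and a locus with 0 counts could hold up to 10.1 per 100000 in the esophagus tissue and up to 0.992 in that ampullae culture (3 counts of the total). Intervals and limits of this kind cover counting error only. Levels were not divided by transcript length and are compared between libraries, not between genes. The columns are numbered 1 to 6 in 3 runs: 1 run holds the 6 tissues, 1 holds the 5 white cultures with the ampullae culture 6 of green sturgeon, and 1 holds the other green libraries. Whether these runs were batches is not stated, and culture and tissue cannot be told apart from run. Keratins and desmoplakin, which mark epithelium, held 402 per 100000 in the fibroblast and adipocyte library, 990 to 9655 in green cultures, 3882 to 10215 in white cultures and 3910 to 17540 in white tissues. In the fibroblast and adipocyte library decorin alone had 7505 counts and desmoplakin 0. No library pair was close enough to be 1 library deposited more than once.

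As background, a dividing cell first makes deoxyribonucleotides, loads the MCM helicase on its DNA under the licensing system, copies the genome in S phase and then separates the chromosomes in mitosis. Cyclins switch on their kinase partners in turn, cyclin E at the entry to S phase and cyclin B at the entry to mitosis, while inhibitors of the CDKN families hold the kinases back. In mammalian epidermis division takes place mainly in the lowest layer, while in fish skin cells of several layers can divide.

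Summed over all 76 loci, the cell cycle genes held 260 per 100000 in the fibroblast and adipocyte library and 157 to 521 in green cultures (280 ± 126, SD, n = 6). White cultures held 182 to 386 (331 ± 85.2, n = 5) and white tissues 83.9 to 381 (208 ± 106, n = 6). The ranges overlapped in every pairing of groups, and the cultures labelled female were both the lowest and the highest green ones (157 and 521), with 216 to 274 in the 3 labelled male. In each group of cultures 1 library stood apart: the ampullae culture 5 was the highest green culture at 521, and the mouth rim culture 1 was the lowest white culture at 182. The tissues were spread more evenly, with the dorsal skin highest at 381 and the barbel next at 269. The single dodecaploid culture, at 386, lay beside 339 to 377 in 3 of the octoploid white cultures. Members were found by name, and the share of counts without a name differed between libraries. It was 34.8% in the esophagus and 19.2% in the upper palate tissue, against 1.59% to 2.93% in white cultures. The part of this share in the sums was not tested. Counts were concentrated in few loci: the 10 with the most counts held 57.8% of all member counts, 25 loci had fewer than 10 counts over the series, and 2 loci were counted in all 18 libraries.

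**Figure D1:**
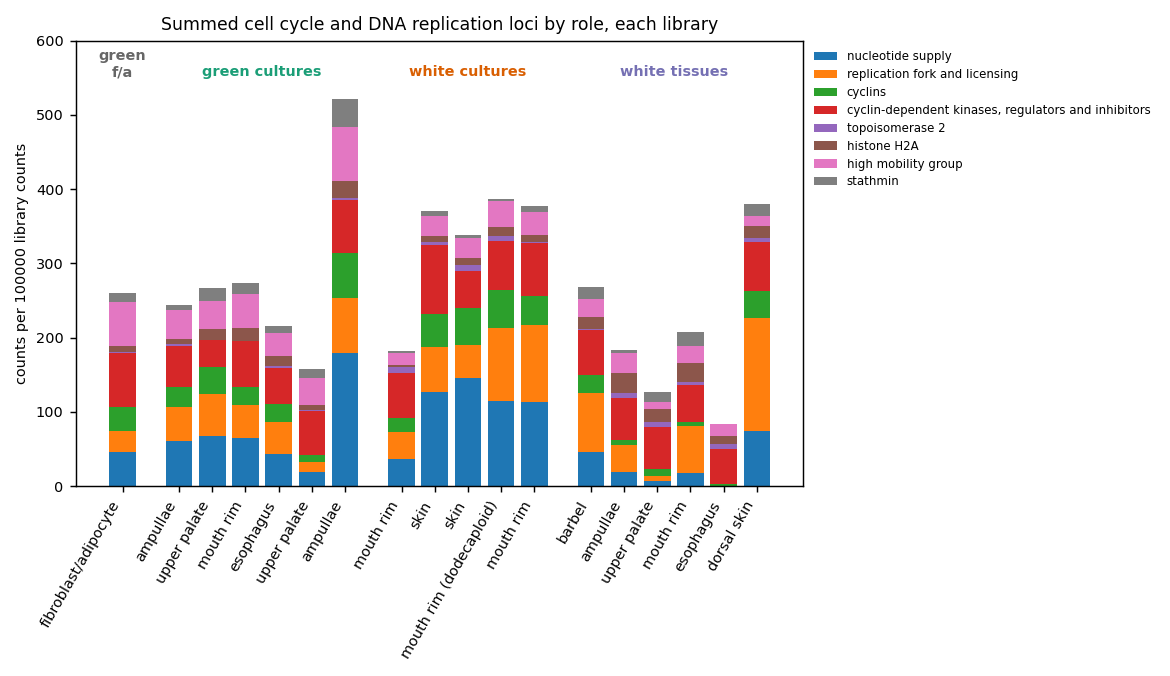
Stacked bars of the summed level of the cell cycle and DNA replication loci in each of 18 libraries, in counts per 100000 library counts, coloured by role and grouped as green fibroblast and adipocyte library (green f/a), green cultures, white cultures and white tissues. The nucleotide supply segment runs from 0 in the esophagus tissue to 179 in the green ampullae culture 5, while the kinase segment stays between 37.1 and 91.8.

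The roles differed in how far they varied. The 9 loci of nucleotide supply summed to 72.4 ± 55.3 per 100000 in green cultures, 107 ± 41.7 in white cultures and 27.2 ± 27.9 in white tissues (SD). The 13 cyclin loci summed to 40.6 ± 13.3 in white cultures and 14.3 ± 13.3 in white tissues. The 25 loci of cyclin-dependent kinases, their regulators and inhibitors were nearly level, at 55.8 ± 12.04 in green cultures, 67.9 ± 15.6 in white cultures and 55.8 ± 6.87 in white tissues. Histone H2A loci had a lower mean in cultures, with 13.9 ± 6.17 per 100000 in green and 8.14 ± 3.28 in white cultures, against 18.7 ± 6.68 in white tissues. High mobility group loci summed to 43.7 ± 14.6 in green cultures against 27.4 ± 7.27 in white cultures. Stathmin summed to 16.3 ± 11.3 in green cultures and 4.87 ± 2.24 in white cultures. These sums are descriptions and carry no test, and in bulk RNA fewer cycling cells and less RNA per cell cannot be told apart.

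White cultures were compared with white tissues to see which of these genes differ between cultured cells and intact tissue of 1 species. Higher in culture were 3 loci: the large subunit of ribonucleotide reductase, 1 of its small subunits and the helicase subunit mcm6-B. The kinase CDK9, which acts on RNA polymerase II and not on the cell cycle, was lower in culture. Of 76 loci, 8 had enough counts to be tested, 3 rose and 1 fell at an adjusted p under 0.05 (edgeR quasi-likelihood test with Benjamini-Hochberg adjustment over 1863 loci). Over all tested loci 27.6% were higher in cultures and 29.4% lower, so that a large part of all loci passed this test. With only 8 loci tested, the members' shares of 37.5% higher and 12.5% lower rest on 3 loci and 1 locus. Their median log2 fold change was 0.41, against -0.04 for all loci.

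Ribonucleotide reductase turns ribonucleotides into deoxyribonucleotides, and its large subunit holds the active site. The locus of the large subunit (PB.9606) had 9.31 per 100000 in the white mouth rim culture 1, 17.8 and 16.7 in the skin cultures, 23.5 in the dodecaploid mouth rim culture and 29.7 in the mouth rim culture 5, against 0 to 9.30 in tissues with a median of 0.644. Every culture lay above every tissue, though the lowest culture and the barbel tissue were nearly equal, and 3 tissues had no count. The log2 fold change was 1.99 ± 0.61 (SE, adjusted p = 0.0105, edgeR). The locus entered the test mainly through the cultures, where it is high. Of the 11 fits without 1 library, it had enough counts in 6 and stayed past the threshold there. In the others it could not be tested, so these fits are no full check of stability.

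The small subunit, M2, carries the radical that starts the reaction and is made mainly in S phase in mammals. Its main locus (PB.20116), the member with the most counts in the series, had 18.6 per 100000 in the mouth rim culture 1, 71.8 and 81.1 in the skin cultures, 60.1 in the dodecaploid culture and 61.8 in the mouth rim culture 5, against 0 to 46.7 in tissues with a median of 13.9. The dorsal skin and barbel tissues, at 46.7 and 27.9, exceeded the mouth rim culture 1, so that the groups overlapped. The fitted log2 fold change of 1.37 ± 0.53 (SE, adjusted p = 0.0336, edgeR) was not stable. It lost the threshold on leaving out either skin culture, the dodecaploid culture, the mouth rim culture 5, or the ampullae, upper palate or mouth rim tissue (adjusted p of 0.0574 to 0.0879, edgeR).

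A second M2-like locus (PB.5831) had too few counts for the test. White cultures held 7.24, 27.01, 34.4, 26.98 and 15.2 per 100000, against 0 to 5.88 in tissues with a median of 1.46. The groups did not overlap, with 123 culture counts and 21 tissue counts. This locus was singled out after its values were seen. It shares its protein name with the main locus, and counts of such near-identical loci are uncertain where reads could be assigned to either; the main locus held 72.8% of their joint counts in white cultures and 87.6% in white tissues.

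The other 6 loci of nucleotide supply were sparse. Thymidine kinase 2 (PB.15115), a mitochondrial enzyme in mammals, was counted in all 5 white cultures (0.870 to 5.40 per 100000, 15 counts) and in 0 of 6 tissues. Against a limit of 3 counts over the tissues, the observed level of the white cultures was 5.77-fold higher, without the counting error of the 15 culture counts. Thymidine kinase 2 was named after its values were seen. The pair of thymidylate synthase-like loci, whose enzyme makes the thymine nucleotide, had 11 and 5 counts in white cultures against 14 and 4 in white tissues.

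Of 3 licensing loci tested, 1 was higher in cultures. MCM proteins form the ring that opens DNA ahead of the polymerases. The mcm6-B-like locus (PB.12083) had 5.17 per 100000 in the mouth rim culture 1, 19.3 and 14.4 in the skin cultures, 20.02 in the dodecaploid culture and 24.9 in the mouth rim culture 5, against 0 to 12.5 in tissues with a median of 3.32. All cultures except the mouth rim culture 1 lay above every tissue. The log2 fold change was 1.51 ± 0.53 (SE, adjusted p = 0.0214, edgeR). Without the mouth rim culture 5 or the mouth rim tissue it missed the threshold (adjusted p of 0.0650 and 0.0535, edgeR). The mcm6-B-like locus entered the test mainly through the cultures, where it is high.

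The mcm4-A locus (PB.4170), the licensing locus with the most counts, had 21.7, 27.8, 18.9, 44.4 and 53.8 per 100000 in the white cultures, against 0 to 66.9 in tissues with a median of 23.1. Its log2 fold change was -0.03 ± 0.54 (SE, adjusted p = 0.961, edgeR). The mcm2-like locus (PB.20189) had 10.3, 12.3, 8.89, 33.9 and 24.1 in white cultures, against 0 to 57.6 in tissues with a median of 17.2, and a log2 fold change of -0.46 ± 0.64 (adjusted p = 0.555, edgeR). Both loci had their highest level of all 18 libraries in the dorsal skin, and the upper palate and esophagus tissues had 0 to 6.45 per 100000. The SD among the 6 tissues, 25.4 for mcm4-A and 21.9 for mcm2, exceeded the difference between the group means at both loci. The second MCM6 locus (PB.10595) also peaked in the dorsal skin, at 13.2 per 100000, with 27 counts in tissues and 6 in white cultures. It was named after its values were seen.

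**Figure D2:**
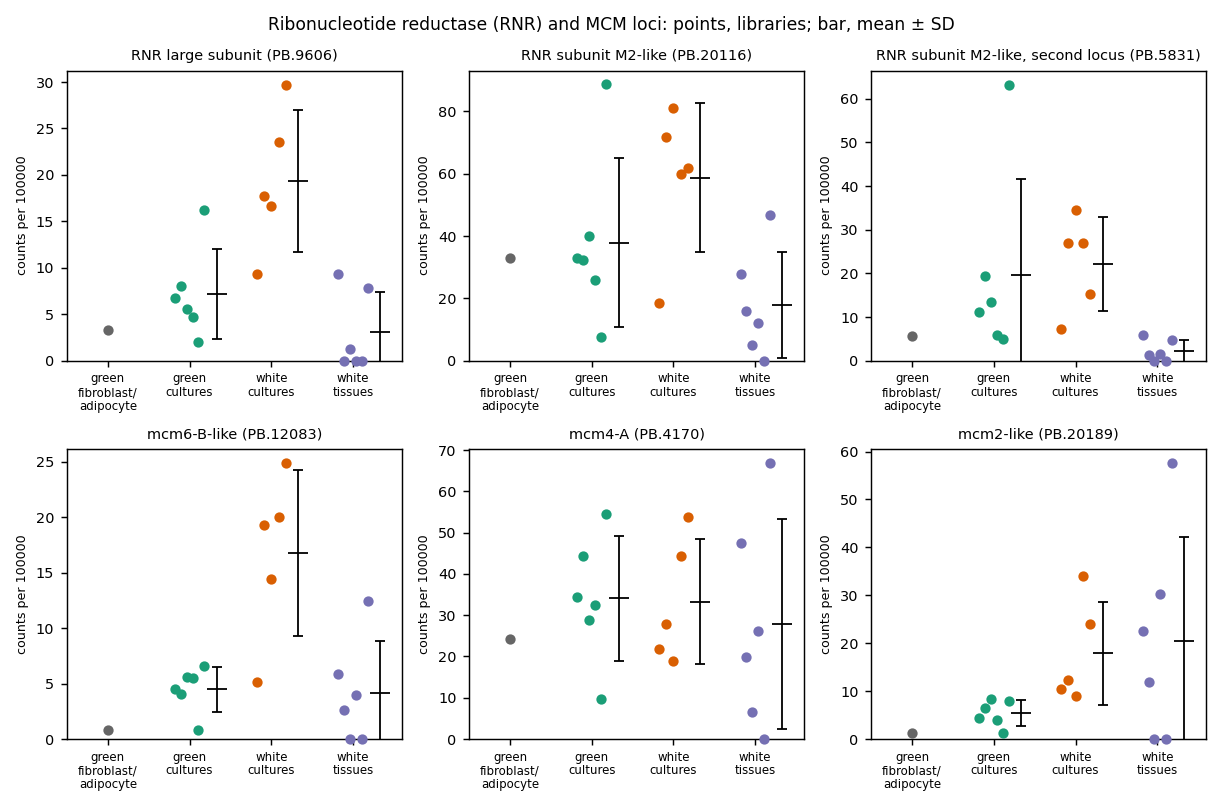
Levels of 3 ribonucleotide reductase (RNR) loci and 3 MCM loci in counts per 100000 library counts; each point is a library, and the bar beside the points is the mean ± SD of the group, cut off at 0 where it would run below. At the RNR large subunit and the second M2-like locus every white culture lies above every white tissue. The closest libraries, the mouth rim culture 1 and the barbel, are at 9.31 against 9.30 and 7.24 against 5.88, within counting error. The mcm4-A and mcm2-like loci reach their maximum, 66.9 and 57.6, in the dorsal skin tissue.

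CDK9 (PB.14492), the kinase locus with the most counts, releases paused RNA polymerase II. It had 12.4, 13.9, 3.33, 18.3 and 17.6 per 100000 in the white cultures, against 13.5 to 31.9 in tissues with a median of 21.6. The mouth rim and upper palate tissues, at 13.5 and 14.2, fell among the cultures. The fitted log2 fold change was -1.02 ± 0.40 (SE, adjusted p = 0.0395, edgeR). The call was lost without the mouth rim culture 1, either skin culture or the ampullae tissue (adjusted p of 0.0549 to 0.141, edgeR), and with scaling by library totals (-0.72, adjusted p = 0.152, edgeR). The other tested kinase, CDK10 (PB.18353), had a log2 fold change of 0.64 ± 0.44 (adjusted p = 0.226, edgeR), with 3.33 to 16.2 per 100000 in white cultures and 0 to 8.76 in white tissues.

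Of 13 cyclin loci, 0 had enough counts for the test between white cultures and tissues. Cyclin E2 (PB.4725), a partner of CDK2 at the entry to S phase, had 5.17, 13.1, 15.6, 13.9 and 12.8 per 100000 in the cultures, against 0 to 3.89 in tissues with a median of 1.04. The groups did not overlap (68 counts against 12). Cyclin B2 (PB.21228), the cyclin locus with the most counts, is a mitotic partner of CDK1. It had 3.10, 12.3, 14.4, 12.2 and 8.82 per 100000 in cultures, against 0 to 7.83 in tissues with a median of 0.664. Only the mouth rim culture 1 fell among the tissues, 3 of which had no count. Cyclin D loci, which respond to growth factors in mammals, had 8 counts over all 18 libraries.

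Kinase inhibitors were also below the test. CDKN1Bb (PB.12971), named after the inhibitor p27, had 2.07 to 8.49 per 100000 in the 5 white cultures (23 counts), against 0 to 3.36 in tissues (4 counts). CDK17 (PB.13298), a kinase of the PCTAIRE family, had 16 counts in white cultures and 0 in tissues. Against a limit of 3 counts over the tissues, the observed culture level was 6.15-fold higher, without the counting error of the 16 counts. In the opposite direction, the second CDK11B locus (PB.18835) had 2 counts in cultures and 27 in tissues, where all 6 libraries were counted. These loci were named after their values were seen.

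Core histone H2A, a protein of every nucleosome, had its counts in the tissues. The locus named histone H2A (PB.25087) had 2 counts over the 5 white cultures, against 45 over the 6 tissues, where it ran from 0.778 to 18.6 per 100000 with its maximum in the ampullae. Histone H2AX (PB.25105), the variant that marks DNA breaks, had 3 counts in white cultures against 17 in tissues, and it was counted in every tissue. PB.25087 and PB.25105 were named after their values were seen. The variant H2A.Z, made outside S phase as well, had its main locus (PB.416) at 3.10 to 7.78 per 100000 in white cultures and 0 to 6.23 in white tissues. Most replication-dependent histone messages lack a poly(A) tail in animals, and the libraries were primed on poly(A), so histone counts of this kind are no measure of S phase.

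The DNA topoisomerase 2-beta-like locus (PB.2931), whose enzyme passes DNA strands through each other, had 0 to 7.24 per 100000 in white cultures and 1.47 to 6.71 in white tissues. The nucleosome-binding protein HMGN3 (PB.6225) had 12.4, 14.7, 14.4, 26.1 and 22.5 per 100000 in cultures, against 3.87 to 22.6 in tissues with a median of 11.01. Its log2 fold change was 0.17 ± 0.44 (SE, adjusted p = 0.761, edgeR). Stathmin (PB.19952), which takes microtubules apart, had 2.61 to 8.02 per 100000 in white cultures and 0 to 15.9 in tissues, where 4 of 6 tissues exceeded every culture and the ampullae and esophagus did not. It had too few counts for the test.

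Among the other genes of the same processes, several mitosis genes rose in white cultures and none fell among those tested. Of 96 loci named for the spindle, kinetochore, condensin or mitotic kinases, 12 were tested, 6 were higher and 0 lower (27.6% of all loci higher and 29.4% lower, edgeR). Loci low in tissues could enter this test mainly through the cultures, where they are high, so the counts by direction carry that selection. CDC20 (PB.10005), the activator of the anaphase-promoting complex, averaged 85.9 ± 38.3 per 100000 in white cultures and 14.3 ± 19.9 in white tissues (SD), with a log2 fold change of 2.15 ± 0.69 (SE, adjusted p = 0.0131, edgeR). Cyclin A2 (PB.2045) had a log2 fold change of 1.47 ± 0.59 (adjusted p = 0.0403, edgeR), close to the threshold. That of aurora kinase C-like (PB.21446) was 2.51 ± 0.61 (adjusted p = 0.00213, edgeR). How each of these loci fared in the alternative fits is not given here. Of 42 other replication loci 5 were tested and 1 was higher, ORC4 (PB.10615), a subunit of the complex that marks replication origins (log2 fold change 1.65 ± 0.38). Of 18 loci of other histones 5 were tested and 2 were lower in cultures, both of them histone H3. PB.6390, with transcripts named H3 and H3.3A, was at 5.43 ± 2.82 per 100000 in cultures and 49.6 ± 17.2 in tissues. PB.12876, named H3.3A, was at 7.20 ± 3.62 and 22.1 ± 16.9.

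Markers of other cell types differed between white cultures and tissues. The 7 loci of the immune list summed to 0 to 2.07 per 100000 in white cultures and 98.1 to 546 in white tissues, with CD45 at 0 counts in cultures and 51 in tissues, and with 0 rows named for immunoglobulin chains or CD3. The 13 mucous loci summed to 2.07 to 13.3 in white cultures and 6.64 to 282 in tissues, and the 3 blood loci to 14.8 to 47.6 in white cultures and 45.1 to 113 in tissues. The blood counts were nearly all of 5-aminolevulinate synthase, the first enzyme of heme synthesis (142 in white cultures, 457 in tissues), and hemoglobin had 2 counts in the whole series. The 10 connective tissue loci summed to 56.9 to 198 in white cultures and 7.78 to 123 in tissues. The members of this list ran in opposite directions. Decorin had 574 counts in white cultures and 170 in tissues, lumican 13 and 0, and fibronectin 17 and 4. Collagen I had 22 counts in white cultures and 247 in tissues. The part of these cells in the differences was not tested. Restricting the tissues to the mouth rim and dorsal skin, the tissues nearest to the culture sites by their labels (the skin cultures are labelled skin only), left the RNR large subunit at 2.17 (adjusted p = 0.0545), RNR M2 at 0.87 (adjusted p = 0.275), mcm6-B at 0.90 (adjusted p = 0.272) and CDK9 at -0.91 (adjusted p = 0.198, edgeR), so that none of the 4 calls held. Other members did pass in that restricted fit. Each alternative fit, this one included, called at least 2 members, at least 1 of them higher in cultures. Scaling by library totals put the median log2 fold change of all loci at 0.27, against -0.04 with TMM, and gave 600 loci higher and 405 lower in cultures, where the TMM scaling gave 515 and 547.

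Green cultures were compared with white cultures, the same kind of material in the 2 species. A pair of chromatin and cytoskeleton loci was higher in green cultures, HMGB2a and stathmin. Lower in green cultures were 6 loci: mcm2, the RNR large subunit, cyclin E2, CDK9, CDK11B and HMGN3. Of 76 loci 16 were tested, 2 rose and 6 fell (edgeR, 2125 loci tested). Over all loci 29.1% were higher in green cultures and 28.4% lower, and the members' shares were 12.5% and 37.5%. Their median log2 fold change was -0.50, against 0.14 for all loci. HMGB2a entered this test through the green cultures alone. Stathmin, mcm2, the RNR large subunit, cyclin E2 and HMGN3 entered it mainly through the group where each is high. Both species were read against the genome and proteins of another species, the sterlet, so a difference in level and a difference in how well a locus was matched cannot be told apart. Sites also differed, since the mouth rim was the only site sampled in cultures of both species, and green but not white tissue was treated with trypsin before it was plated. Runs differed as well: the white cultures share theirs with the green ampullae culture 6 only, and the other green cultures lie in another. Species and run can therefore hardly be told apart. The 5 white cultures are those of the comparison with tissues.

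HMGB2a (PB.2118), a DNA-bending protein of the kind that is abundant in dividing cells of mammals, had 8.16 to 25.1 per 100000 in green cultures with a median of 15.1, against 0, 0.772, 2.22, 0.870 and 0 in white cultures. The groups did not overlap (221 counts against 4). The log2 fold change was 4.29 ± 0.60 (SE, adjusted p = 2.83e-05, edgeR), and every fit that left out 1 library kept it past the threshold (log2 fold change 3.96 to 4.94). The locus entered the test through the green cultures alone, where it is high. The fits without 1 library share that limit and are no independent check. White tissues had 3 counts in all, with 1 count at most in a library, and the green fibroblast and adipocyte library had 9.88 per 100000. The locus was thus counted in all 7 green libraries at 8.16 or more and in no white library above 3.36. In the green ampullae culture 6, whose column is numbered with the white cultures, it stood at 12.7. That is 1 library, and the part of the run was not tested.

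Stathmin (PB.19952) had 6.72 to 38.0 per 100000 in green cultures with a median of 13.4, against 3.10, 6.17, 4.44, 2.61 and 8.02 in white cultures. The ampullae culture 5 was far above the other green cultures, and the ampullae culture 6, at 6.72, lay below the highest white culture. The fitted log2 fold change was 1.64 ± 0.51 (SE, adjusted p = 0.0125, edgeR), and it was 1.14 (adjusted p = 0.0390) without the ampullae culture 5. The second stathmin-like locus (PB.19948) had 10 counts in the series, 9 of them in white tissues.

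The mcm2-like locus (PB.20189) had 1.22 to 8.36 per 100000 in green cultures with a median of 5.46, against 10.3, 12.3, 8.89, 33.9 and 24.1 in white cultures. The groups did not overlap, although the highest green and the lowest white culture differed by less than 1 count per 100000. The log2 fold change was -1.83 ± 0.47 (SE, adjusted p = 0.0041, edgeR) and held without any 1 library. The mcm4-A locus was at 9.79 to 54.6 in green cultures with a median of 33.4, and 18.9 to 53.8 in white cultures, with a log2 fold change of -0.08 ± 0.42 (adjusted p = 0.886, edgeR). The difference between these loci was not tested. The mcm6-B-like locus had too few counts for the test here, with 0.816 to 6.62 in green cultures and 5.17 to 24.9 in white cultures.

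**Figure D3:**
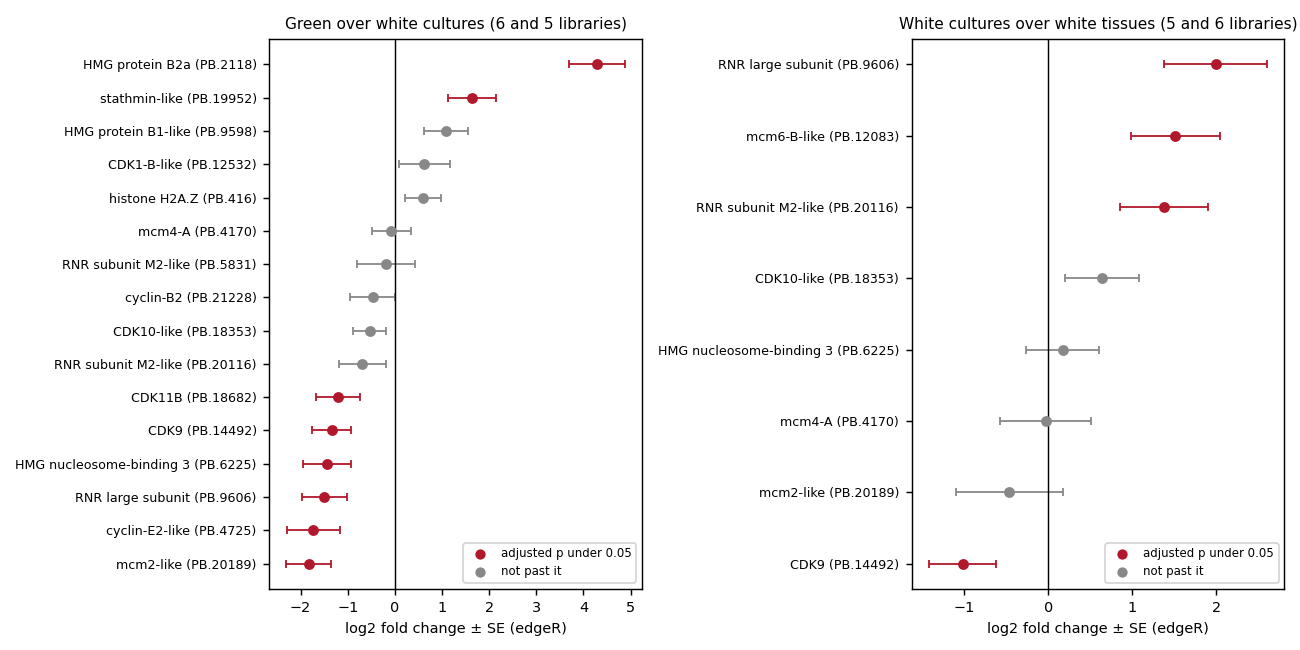
Log2 fold change with its SE for each tested locus, green over white cultures on the left (16 loci) and white cultures over white tissues on the right (8 loci), from edgeR; red marks an adjusted p under 0.05. HMGB2a is the locus farthest from 0 at 4.29, and the RNR large subunit lies at 1.99 in white cultures over tissues and -1.49 in green over white cultures; the comparisons share the 5 white cultures.

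The RNR large subunit (PB.9606) had 2.04 to 16.2 per 100000 in green cultures with a median of 6.15, against 9.31, 17.8, 16.7, 23.5 and 29.7 in white cultures. The ampullae culture 5, at 16.2, was the only green culture above the lowest white one. The fitted log2 fold change was -1.49 ± 0.47 (SE, adjusted p = 0.0134, edgeR). The main M2 locus had 7.75 to 88.7 in green cultures with a median of 32.5, and 18.6 to 81.1 in white cultures, and its log2 fold change of -0.69 ± 0.50 missed the threshold (adjusted p = 0.245, edgeR). Without the ampullae culture 5, the highest of all cultures, it was -1.18 (adjusted p = 0.0273). The second M2-like locus (-0.19 ± 0.62, adjusted p = 0.802) had 63.2 in the same culture and 4.89 to 19.3 in the other green cultures.

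Cyclin E2 (PB.4725) had 0.408 to 8.93 per 100000 in green cultures with a median of 4.104, against 5.17, 13.1, 15.6, 13.9 and 12.8 in white cultures. Only the ampullae culture 5 exceeded the mouth rim culture 1 of white sturgeon, and the log2 fold change was -1.73 ± 0.57 (SE, adjusted p = 0.0164, edgeR). Cyclin B2, tested beside it, had 2.45 to 14.5 per 100000 in green and 3.10 to 14.4 in white cultures (-0.47 ± 0.48, adjusted p = 0.414). The kinase that cyclin B serves, CDK1 (PB.12532), had 3.65 to 28.8 in green and 3.10 to 11.1 in white cultures (0.62 ± 0.55, adjusted p = 0.343, edgeR).

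The kinases CDK9 and CDK11B were lower in green cultures. CDK9 (PB.14492) had 2.79 to 9.38 per 100000 with a median of 4.87, against 12.4, 13.9, 3.33, 18.3 and 17.6 in white cultures. Only the skin culture 3 of white sturgeon fell among the green cultures, and the log2 fold change was -1.34 ± 0.42 (SE, adjusted p = 0.0128, edgeR). CDK11B (PB.18682), linked to splicing, had 0.992 to 9.38 in green cultures with a median of 5.73, against 12.4, 13.9, 6.67, 7.83 and 17.6 in white cultures. Its log2 fold change of -1.21 ± 0.46 (adjusted p = 0.0356, edgeR) missed the threshold without the mouth rim culture 1, the skin culture 2 or the mouth rim culture 5 of white sturgeon, or the upper palate culture 1 or esophagus culture 3 of green sturgeon (adjusted p of 0.0612 to 0.107). Leaving out 1 library left CDK11B enough counts in 9 fits, and 4 of these kept the call. Among the 9 other alternatives 3 kept it. CDK10 had a log2 fold change of -0.53 ± 0.35 (adjusted p = 0.202).

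HMGN3 (PB.6225) had 2.56 to 19.2 per 100000 in green cultures with a median of 4.33, against 12.4, 14.7, 14.4, 26.1 and 22.5 in white cultures. The ampullae culture 5 was again the exception, at 19.2, with 6.72 in the next green culture. The log2 fold change of -1.44 ± 0.51 (SE, adjusted p = 0.0243, edgeR) lost the threshold on leaving out the dodecaploid culture or the mouth rim culture 5 of white sturgeon, or any of the green cultures 1 to 4 (adjusted p of 0.0507 to 0.0606). HMGB1 (PB.9598), a chromatin protein related to HMGB2, had 5.64 to 11.4 per 100000 in green and 0.870 to 8.49 in white cultures (1.09 ± 0.46, adjusted p = 0.0559). The main H2A.Z locus had 3.73 to 10.5 in green and 3.10 to 7.78 in white cultures (0.60 ± 0.39, adjusted p = 0.196, edgeR).

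**Figure D4:**
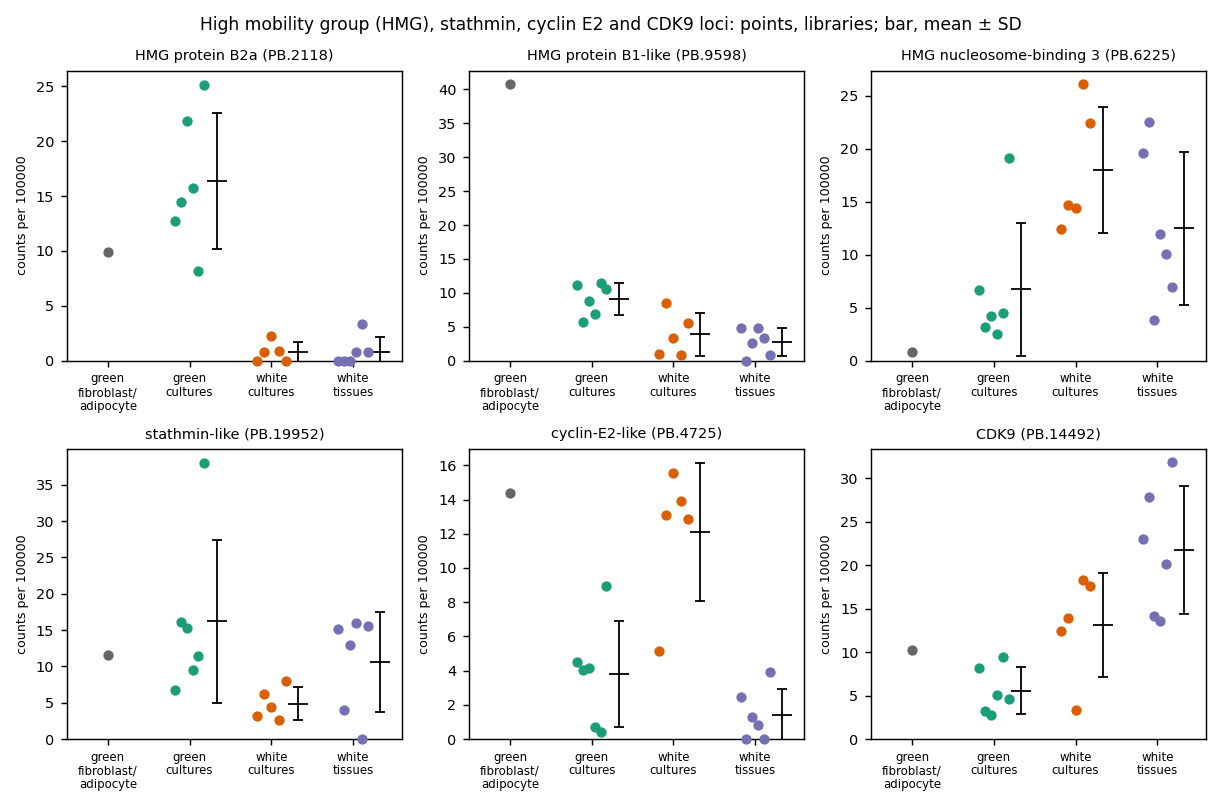
Levels of 3 high mobility group (HMG) loci, stathmin, cyclin E2 and CDK9 in counts per 100000 library counts; each point is a library, and the bar beside the points is the mean ± SD of the group, cut off at 0 where it would run below. HMGB2a is at 8.16 or more in all 7 green libraries and at 3.36 or less in all 11 white ones, and HMGB1 is highest in the fibroblast and adipocyte library at 40.7.

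Some loci below the test's count limit also differed in counts between the species, and were picked out after their values were seen. The CDKN2A-like locus (PB.27707), named after the inhibitor p16, was counted in all 6 green cultures at 0.992 to 7.75 per 100000 (52 counts) and in 0 of 5 white cultures. Against a limit of 3 counts over the white cultures, the observed level of green cultures was 7.44-fold higher, without the counting error of the 52 counts. White tissues had 3 counts. CDKN1Bb had the opposite pattern, with 4 counts in green and 23 in white cultures and no overlap. CDK4-like (PB.25573), the kinase that CDKN2A inhibits in mammals, had 0.806 to 12.1 per 100000 in green and 0 to 4.63 in white cultures (100 counts against 10). TOX4 (PB.24890), a member by its high mobility group box, had 3.65 to 9.79 in green and 0.802 to 3.48 in white cultures without overlap. CDK17 had 3 counts in green and 16 in white cultures.

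Most of the other mitosis loci tested were lower in green cultures. Of 96 mitosis loci 16 were tested, 0 were higher and 10 lower, beside 29.1% higher and 28.4% lower over all loci (edgeR). Loci low in green cultures could enter this test mainly through the white cultures, where they are high. The 3 with the most counts were aurora kinase C-like (PB.21446, log2 fold change -0.93 ± 0.34), the centromere protein K-like locus (PB.5604, -0.97 ± 0.33) and the condensin-2 subunit D3 (PB.25071, -2.22 ± 0.48). At PB.5604, however, only 51 of 405 counts carried the centromere protein K name. Of 42 replication loci 6 were tested, 0 were higher and 2 lower, the maintenance DNA methyltransferase DNMT1 (PB.25242), at 4.49 ± 2.87 per 100000 in green and 20.6 ± 6.23 in white cultures (SD), and ORC4, at 0.630 ± 0.605 and 22.2 ± 2.42. Of 18 loci of other histones 6 were tested, 3 were higher and 2 lower; at 1 of the 6, PB.25692, only 21 of 199 counts carried a histone name. Histone H1.0 (PB.12905), a linker histone of resting cells in mammals, was at 51.3 ± 26.8 in green and 2.89 ± 1.87 in white cultures, while the H1.0-like locus PB.13599 was at 6.32 ± 5.82 and 21.8 ± 8.31. The locus named histone H3 and H3.3A (PB.6390), lower in white cultures than in tissues, was higher in green than in white cultures (37.4 ± 17.1 and 5.43 ± 2.82).

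Connective tissue markers summed to 32.2 to 561 per 100000 in green cultures, with the maximum in the ampullae culture 6, against 56.9 to 198 in white cultures; immune markers summed to 0.331 to 4.64 in green and 0 to 2.07 in white cultures. Mucous markers summed to 0.331 to 120 in green cultures, with the maximum in the esophagus culture 3, against 2.07 to 13.3 in white cultures, and blood markers to 7.61 to 160, with the maximum in the upper palate culture 4, against 14.8 to 47.6. Their part in the differences was not tested. Comparing the 1 green with the 3 white mouth rim cultures left 1 member called of 20 tested, HMGB2a, at a log2 fold change of 5.85 (adjusted p = 0.00731, edgeR), with 595 calls over all loci. In that fit the single green library was assumed to vary like the white ones, so it gives no replicate check of the green side.

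Across all libraries, several members occurred as pairs of loci named for 1 protein, or, for MCM6, as mcm6-B-like and MCM6. Sturgeons are polyploid fish, and gene copies are common in their genomes. The main locus of CDK11B held 97.1% of the pair's counts in white cultures and 52.6% in white tissues, and that of MCM6 held 74.1% in green cultures, 94.2% in white cultures and 56.5% in white tissues. Such shares carry no test and depend on how reads were assigned to near-identical loci.

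In the fibroblast and adipocyte library, the only one not labelled epithelial or intact tissue, the summed members stood at 260 per 100000, inside the range of green cultures. Nucleotide supply summed to 45.7 and licensing loci to 28.8, both inside the green range of 19.6 to 179 and 13.5 to 73.4. HMGB1 stood out, at 40.7 per 100000 (99 counts, Wilson 95% interval 33.5 to 49.6), against 5.64 to 11.4 in green cultures. With 1 library there is no replicate check.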

How the data were processed

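Full-length PacBio Iso-Seq reads of polyadenylated RNA were measured in 18 libraries. The authors processed the reads with IsoSeq3 3.4.0, placed them on the sterlet genome (the aligner is not given in the sources used here), kept transcripts with at least 3 supporting reads in Sqanti3 4.1, and named them with blastp 2.14.1 against sterlet proteins at 80% identity or more. The deposited values are raw counts per transcript and library, not normalized, and 95.2% of counts carried a protein name. The share without a name ran from 4.07% (barbel) to 34.8% (esophagus) in white tissues, and from 1.59% to 2.93% in white cultures. Transcripts with fewer reads are lost at these steps, proteins far from sterlet stay unnamed, and near-identical copies may trade reads.

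Here counts were summed by PacBio locus, using the matching transcripts for the 76 member loci, whose remaining transcripts formed loci of their own. Levels are counts per 100000 counts of the library, with Wilson intervals at 95% for single libraries. Totals of 29797 to 302286 set the precision. White cultures (5) against white tissues (6) and green (6) against white cultures (5) were each fitted alone with edgeR 4.0.16 (TMM, filterByExpr with a minimum count of 10 and a total of 15, glmQLFit and glmQLFTest, 2-sided), with Benjamini-Hochberg adjustment over all loci tested and a threshold of 0.05. The SE is the log2 fold change divided by the root of the F statistic. The fit was tested on simulated data. The authors state no test across genes. R 4.3.3 and DESeq2 1.42.0 were used for alternatives, which were DESeq2, library totals, no filter, a stricter filter, the replicate number as a block, all 17 epithelial and tissue libraries in 1 fit, the sites nearest by label, all rows of a locus, sums by protein name, and leaving out each library. Named loci were every member past the threshold in either comparison, the locus with the most counts of each role, and at most 3 called loci of each other list. Other loci were named outside this rule with their values known, and not all of them are marked in the text. The members and lists were chosen with earlier results of these data known. The fibroblast and adipocyte library entered no test. Sequences and genome positions were not used here.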

Additional observations from a re-analysis of the deposited data

Results flagged for a closer look

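In groups of 5 or 6 libraries, 69 group and quantity combinations of the named loci, the role sums and the sum of all members were checked for a library far from the rest, and 9 were found. Chance alone gives about 1 in 20 for separate quantities. These are not separate, since named loci enter the role sums and the role sums enter the sum of all members. The green ampullae culture 5 was the outlying high library in 6 of them: HMGN3 (19.2 per 100000, next 6.72), stathmin (38.0, next 16.1), summed nucleotide supply (179, next 66.9), summed high mobility group loci (72.1, next 45.05), summed stathmin loci (38.0, next 16.9) and the sum of all members (521, next 274). The white mouth rim culture 1 was the outlying low library for cyclin E2 (5.17 per 100000, next 12.8) and for the sum of all members (182, next 339). The esophagus tissue was high for HMGB2a (3.36 per 100000, next 0.796), which there is a single count.

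The fibroblast and adipocyte library entered no comparison. Of the 17 members tested in either comparison, it held 3 above every green culture, with the lower bound of the Wilson interval above the highest of them. The share of all loci that pass the same mark was not counted, so the 3 describe single loci only. HMGB1 was at 40.7 per 100000 against at most 11.4 in green cultures, CDK11B at 15.6 against at most 9.38, and cyclin E2 at 14.4 against at most 8.93. These are values of 1 library, without replicates.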

How the results depend on the processing

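Of the alternatives for the named loci, 310 of 359 stayed on the same side of the threshold (21 of these turned the sign of an uncalled locus), 47 lost the threshold, 2 gained it (the main M2 locus between the species without the green ampullae culture 5, and H2A.Z summed by protein name, 1.04), and 0 turned the direction of a called locus. The 359 pool called with uncalled loci, and all 47 losses are of called ones. Fits in which a locus had too few counts are not among the 359. Member loci past the threshold in white cultures against tissues numbered 4. They were 16 with no filter (of 72 loci, all loci at 10.3% higher and 12.2% lower) and 2 with a replicate block, which also had fewer loci to test; leaving out 1 library gave 1 to 7, with 1 without the mouth rim tissue, 7 without the mouth rim culture 1, and 2 each without the skin culture 2, the mouth rim culture 5, the ampullae tissue and the dorsal skin. The labels do not say that a shared number pairs libraries. Same-numbered deviations correlated at -0.25 to 0.18, which cannot tell whether libraries share a fish. Between green and white cultures 8 members passed, against 19 with no filter (of 71 loci, all loci at 14.6% higher and 14.6% lower). The count was 7 with the replicate block and 6 to 9 without 1 library. Loci of the other lists past the threshold numbered 9 in the first comparison, 32 with no filter, 7 with the replicate block and 6 to 17 without 1 library (17 without the mouth rim culture 1). In the second they numbered 17, 47 with no filter, and 14 to 23 without 1 library. The causes were not tested. Depth limited the tests: 8 and 16 of 76 loci had enough counts.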
